A study of Arabidopsis thaliana with 4 samples.

Results

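The 1112 array features of plates TC17 to TC30 formed a near-uniformly high stretch of an H3K9me2 map of Arabidopsis thaliana, with short low stretches, flat plateaus and 4 consecutive wells that were its highest. The features were chosen by their identifiers, a TC plate number from 17 to 30 followed by a well, with a value required in every column. They made up 5.12% of the 21727 measured features. The plate limits were drawn with the ratios of these arrays known, so the high level of the stretch is a description and carries no test.

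The study profiled chromatin of whole Col-0 seedlings by chromatin immunoprecipitation and 2-colour array hybridisation (ChIP-chip), setting DNA immunoprecipitated with an Upstate antibody against H3K9me2 (IP) beside input DNA. The untreated seedlings were 11 days old and had grown in liquid MS medium at 22 °C with 16 h of light. There was a single group of 4 arrays, a dye-exchanged pair for each of 2 preparations, called replicate 1 and replicate 2. Nothing in the labels ties the preparations to separate cultures, and any spread between them may be technical. Whole seedlings mix many cell types, and a ratio is an average over them.

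H3K9me2 is dimethylation of lysine 9 of histone H3. In Arabidopsis it is written mainly by the SUVH4 (KRYPTONITE), SUVH5 and SUVH6 methyltransferases and is read by the DNA methyltransferase CMT3, whose CHG methylation in turn recruits the histone methyltransferases. The mark is known for covering transposons and repeats of the pericentromeric regions and for being scarce on the bodies of active genes. None of the features could be tied to a gene, a transposon or a chromosome position, since the files used here pair them with none. For the same reason no sequence of a feature is shown, and the order of wells is the order of plate, row and column, not a known order along a chromosome.

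Every value below is the deposited log-scale ratio between IP and input minus the median of all measured features in that replicate, in deposited log units. The sources used here state neither the log base nor the direction of the ratio. Both columns of a dye-exchanged pair held identical values for all 21727 features, so each replicate was 1 value per feature, n was 2, and the sign remained unsettled. Features are accordingly called higher or lower, not enriched or depleted.

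The features of TC17 to TC30 had a median of 3.03 units in replicate 1 and 2.49 units in replicate 2, against -0.03 and -0.04 units in the rest of the series. In the mean of the replicates the median was 2.77 ± 0.38 units (SD of the replicate medians, n = 2). The limma test of the mean against the array median called 1098 of the 1112 above it at an adjusted p under 0.05, which was 98.7%, beside 28.9% of all measured features. It called 1 below, beside 11.7% of all features, and 13 in neither direction. A rule of size, at least 1 unit above the array median in both replicates, was met by 1063 features (95.6%, called high-ratio features below), beside 19.2% of all measured features. These shares restate how the stretch was delimited and are given as its description.

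The high values were not one level. By the mean of the replicates, 16 features lay under 0.5 units, 23 between 0.5 and 1, 48 between 1 and 1.5, 81 between 1.5 and 2, and 212 between 2 and 2.5. The largest class, 418 features (37.6%), lay between 2.5 and 3 units. Above it, 310 features lay between 3 and 3.5 and 4 above 3.5. A mean of at least 3 units was thus reached by 314 features (28.2%), beside 3.58% of all measured features. Of the 1000 features with the highest means on the array, 407 were in TC17 to TC30, and of the 10 highest, 3 were. The name near-uniformly high therefore fits the share past 1 unit, while the features themselves ran from -0.44 to 3.65 units.

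**Figure D1:**
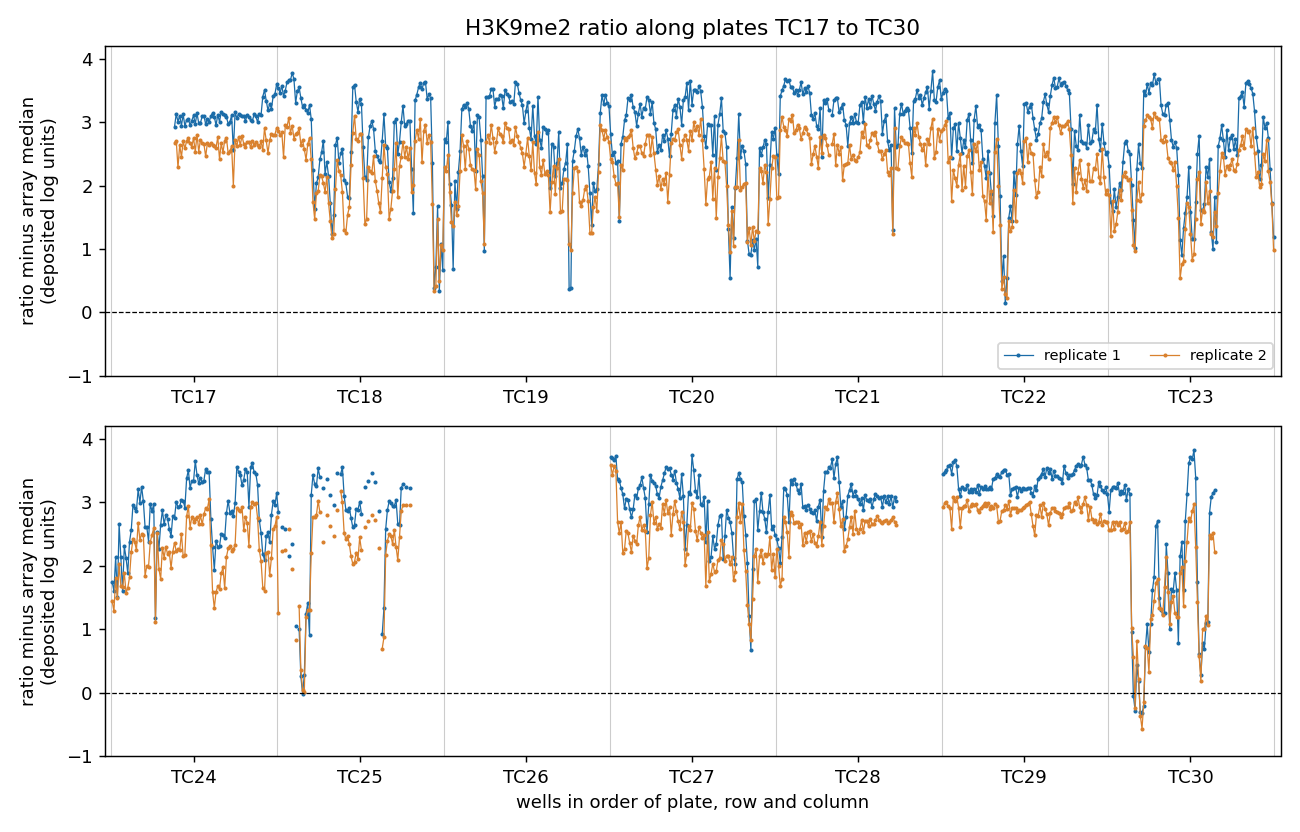
The centred ratio (vertical axis, deposited log units) of each feature is plotted along the wells of TC17 to TC30 in plate, row and column order, with 1 line for each replicate, grey lines at plate borders and a dashed line at the array median. Both replicates trace the same plateaus and dips, with replicate 2 lower on the plateaus, and the deepest dip lies in TC30, where the mean reaches -0.44 units.

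Measured features came from 13 plates, 8 of them complete with 96 wells. Plate number TC26 had no measured feature. TC17 began at well D01, TC28 ended at F10, TC25 at G05 and TC30 at F02. Of 1133 features listed in the stretch, 21 were empty on all arrays, and 20 of these were in TC25. All 20 stood in even-numbered columns of rows A, C, E and G, and no even-numbered well of those rows had a value in TC25. They were 20 of the 34 empty plate wells on the whole array. The remaining empty well of the stretch, TC21C08, was alone in its plate.

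At its lower limit the stretch bordered on wells that already showed a rise. The last measured well before it, TC13C10, lay at 2.93 units in replicate 1 and 2.59 units in replicate 2. It came after TC13C07, TC13C08 and TC13C09, with means of 1.05, 1.25 and 1.39 units, while the 34 measured wells of TC13 had a median of -0.11 units. The first well inside, TC17D01, lay at 2.93 and 2.68 units. The wells on either side of the unmeasured plates therefore differed by less than the replicates did, and from TC13C07 to TC13C10 each well was higher than the one before it in both replicates. At its upper limit the last well, TC30F02, stood at 3.19 and 2.22 units.

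Plates differed in level and in evenness. The highest was TC29, with a median of 3.35 units in replicate 1 and 2.91 in replicate 2, and all 96 of its features past the rule of size. Next by the mean of the replicates came TC21 at 2.95 units, and TC17 and TC28 at 2.87 each. TC27 had a median of 2.75 units, TC25 of 2.65, TC18 of 2.58, TC22 and TC24 of 2.57, TC20 of 2.56, TC19 of 2.55 and TC23 of 2.36 units. TC30 was lowest, with 1.86 units in replicate 1 and 1.56 in replicate 2, and 46 of its 62 features past the rule of size. TC29 was first, TC23 last but one and TC30 last in both replicates. Among the other plates the order was partly exchanged: TC21 was rank 2 in replicate 1 and rank 4 in replicate 2, and TC22 was rank 7 and rank 11. TC18, TC19, TC20, TC22 and TC24, whose medians in the mean differed by at most 0.035 units, cannot be ordered at this precision.

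**Figure D2:**
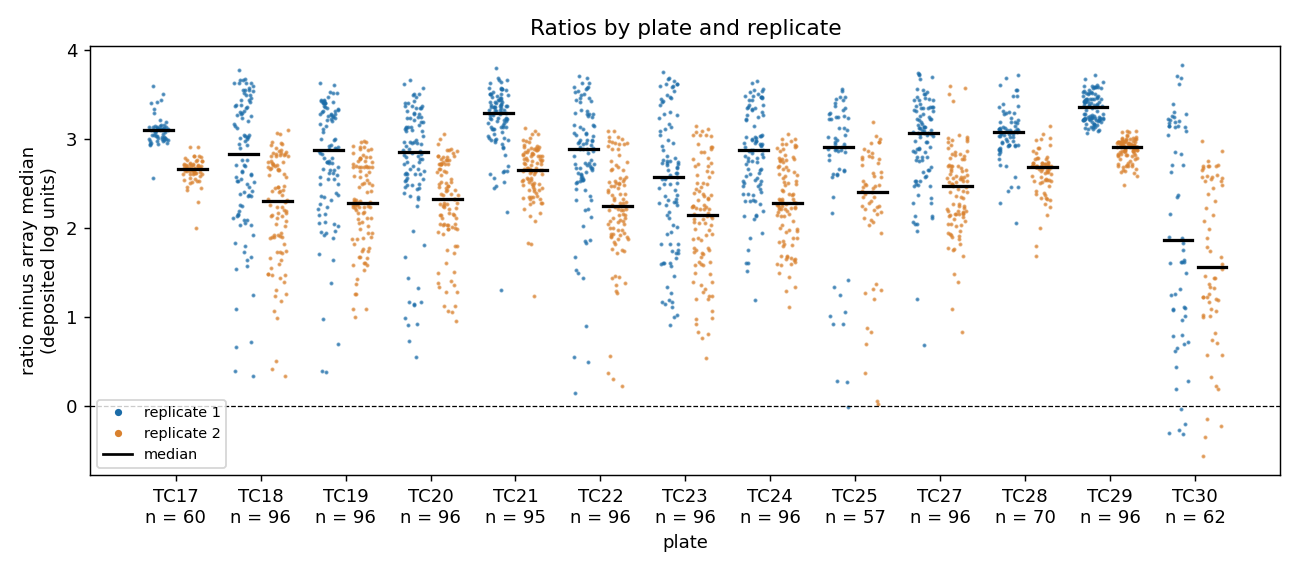
Each point is a feature, by plate (horizontal axis) and replicate (colour), with its centred ratio in deposited log units on the vertical axis and a black bar at the plate median. TC17 and TC29 are narrow bands, TC30 spreads from -0.56 to 3.82 units, and each replicate 2 median lies under that of replicate 1.

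Evenness was measured as the SD of the mean ratio over the features of a plate. Beside it is given the part that replicate error would give (the SD of the replicate difference divided by 2). That difference also went with the level of a feature (Pearson's r of -0.55 with the mean, over all members). Its SD therefore holds this change as well, most in plates of wide range. TC29 had the smallest spread, 0.117 units, which was 1.45 times its replicate error of 0.081 units. TC17 followed with 0.135 units against 0.059. In TC28 the spread was 0.274 units against 0.067, and in TC21 it was 0.321 against 0.099. In the other plates it ran from 0.489 units in TC24 to 1.06 in TC30, and was 4.04 to 6.32 times the replicate error. The plates thus carried differences between wells beyond the replicate error, and those of TC29 were the smallest in size.

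This was also seen in the agreement of the replicates. Pearson's r between them was 0.369 over the 96 features of TC29, 0.681 over the 60 of TC17 and 0.84 to 0.97 in each other plate, a description across features that share an array. A narrow range lowers such a value by itself. Over all members r was 0.950.

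Rows of a plate, 12 wells each, resolved the plateaus. Of 89 complete rows, 12 had an SD under 0.1 units, 6 of them in TC29, 3 in TC17 and the other 3 in TC21E, TC28E and TC30A. The most even were TC29B, at 3.07 units with an SD of 0.041, and TC17G, at 2.88 units with an SD of 0.041. The median SD of a row was 0.31 units and the largest 1.24, in TC25B. The even rows were not at one height: TC17D, TC17E and TC17G stood at 2.83, 2.84 and 2.88 units, TC28E at 2.86 and TC30A at 2.89, whereas TC29G, the highest row of the stretch, stood at 3.25 units. Row means ran down to 0.49 units in TC30B, and 12 rows were under 2 units. Row means of the replicates correlated at 0.981 over the 89 rows.

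Differences between plates held 21.5% of the sum of squares of the mean ratio, rows within plates 34.1% and wells within rows 44.4%. Replicate error, taken from the replicate difference with its change by level included, was equivalent to 3.57% of the total. Medians by position on the plate, over all plates, ran from 2.69 to 2.85 units by column and from 2.61 to 2.89 units by row letter.

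Low wells were few and gathered. Of the 49 features that failed the rule of size, 28 were under 1 unit in both replicates, 12 in replicate 1 alone and 9 in replicate 2 alone. TC30 held 16 of the 49, TC23 8, TC25 7, TC20 5, TC18, TC19 and TC22 4 each and TC27 1. TC17, TC21, TC24, TC28 and TC29 held none. Of the 28 low in both replicates, 19 stood in 5 stretches of at least 2 consecutive wells and 9 stood singly.

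The longest low stretch, TC30B03 to TC30B10, had 8 wells with a mean of 0.023 units in replicate 1 and 0.129 in replicate 2. Its lowest well, TC30B08, lay at -0.32 and -0.56 units and was the single member that limma called below the array median (adjusted p of 0.0394). TC30B07, at -0.31 and -0.36 units, TC30B04, at -0.28 and -0.23, and TC30B09, at -0.21 and -0.15, were also below the median in both replicates without passing the test. The entry was steep. TC30B01 stood at 3.13 and 2.70 units, as the last well of a plateau that began at TC29A01, and the next well, TC30B02, at 0.96 and 1.02 units. The exit was uneven. TC30B11 stood at 1.08 and 0.70 units, TC30B12 at 0.65 and 0.33, TC30C01 at 1.09 and 1.17 and TC30C04 at 2.63 and 1.73 units, and later wells of the row were lower again, with 1.24 and 1.23 units at TC30C08 and 1.01 and 1.09 at TC30C12.

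The other 4 low stretches were shorter and, apart from TC25B03, stayed above the array median in both replicates. TC22C11 to TC22D02, with 4 wells, averaged 0.52 units in replicate 1 and 0.36 in replicate 2. TC25B02 to TC25B04, with 3 wells, averaged 0.175 and 0.142 units, and TC25B03 in its middle lay at -0.013 and 0.050 units, not called in either direction (adjusted p of 0.948 in limma). TC18H07 and TC18H08 averaged 0.55 and 0.37 units, and TC30E05 and TC30E06 0.44 and 0.38 units. The neighbours were less high than the plateaus in most cases: TC22C10 stood at 1.83 and 1.38 units, TC22D03 at 1.49 and 1.45, TC25B01 at 1.01 and 1.36 and TC25B05 at 1.25 and 1.20 units. TC18H06, just before TC18H07, stood higher, at 2.35 and 1.71 units. After TC25B04 the ratio regained 3.12 and 2.20 units at TC25B08, 4 wells on.

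**Figure D3:**
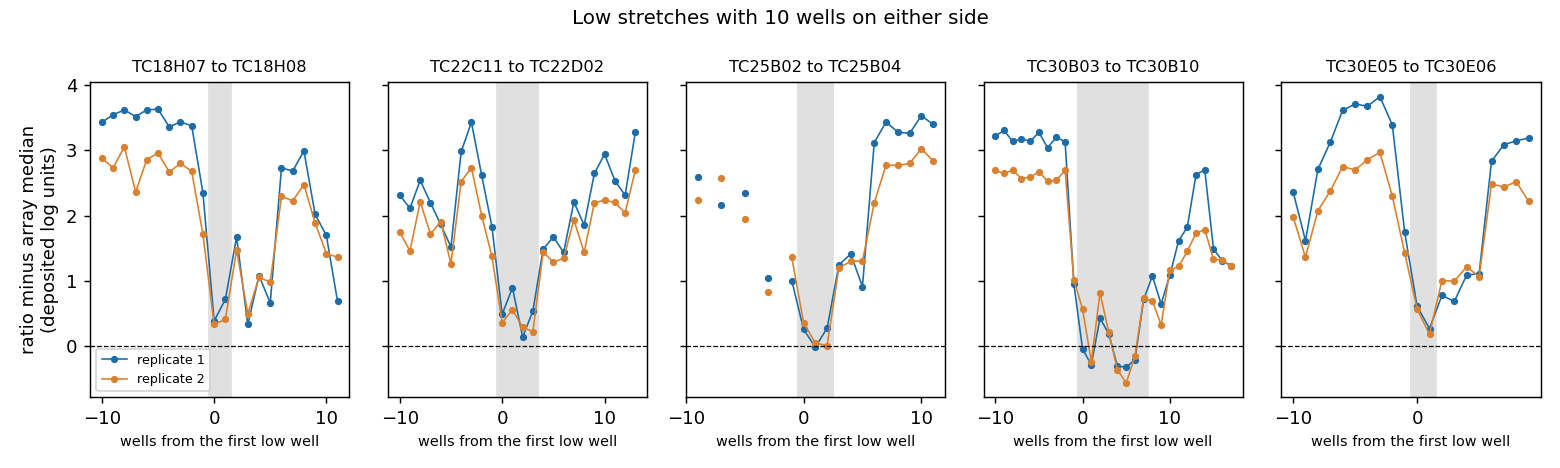
Each panel shows a low stretch (grey) with up to 10 wells on either side, the centred ratio in deposited log units on the vertical axis and the distance in wells from its first well on the horizontal axis, with 1 line for each replicate and gaps at unmeasured wells. The 8-well stretch of TC30 is the deepest, with no value above 0.82 units in either replicate.

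Of the 14 members not called above the array median, 13 lay in these stretches. The other, TC18H10, stood 2 wells after one of them, at 0.34 and 0.50 units (adjusted p of 0.0523 in limma). Beside the wells already described, the 13 were TC22D01 (0.14 and 0.29 units), TC22D02 (0.54 and 0.23), TC25B02 (0.26 and 0.36), TC25B04 (0.28 and 0.01), TC18H07 (0.39 and 0.34), TC30B03 (-0.04 and 0.57), TC30B06 (0.19 and 0.22) and TC30E06 (0.27 and 0.18). No value of the 14 exceeded 0.57 units in either replicate. Around the limit of the rule of size, TC25B01 (1.01 and 1.36 units), TC30C12 (1.01 and 1.09) and TC20F12 (1.17 and 1.05) were just inside. TC23F01 (0.99 and 1.19 units), TC20G12 (0.99 and 1.12) and TC23H12 (1.18 and 0.98) were just outside.

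Most steps between wells were small. Over all 1088 pairs of directly consecutive wells the median absolute step of the mean was 0.143 units, and 60.6% of the steps were under 0.2 units. A step of at least 1 unit in the same direction in both replicates occurred 15 times (1.38% of pairs), 9 times upward and 6 times downward. The largest upward step led from TC19B12, at 0.97 and 1.08 units, to TC19C01, at 3.40 and 2.69 units. TC24C02, at 1.19 and 1.11 units, passed the rule of size but was a local minimum, between TC24C01 at 2.98 and 2.60 units and TC24C03 at 2.53 and 2.53 units. TC21F08, at 1.29 and 1.23 units between TC21F07 at 2.64 and 2.28 and TC21F09 at 3.22 and 2.91, was another.

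Likeness between wells faded over about 24 wells. In the mean ratio Pearson's r was 0.835 between wells 1 apart, 0.589 at 3 apart, 0.357 at 6, 0.252 at 12, 0.099 at 18 and 0.031 at 24 wells apart. At 1 well apart it was 0.827 in replicate 1 and 0.819 in replicate 2. These are descriptions over 1039 to 1088 pairs that share arrays and plates. TA37 to TA51, another dense stretch, gave 0.824, 0.574, 0.331 and 0.155 at 1, 3, 6 and 12 wells apart, and 0.165 at 24 wells. TA21 to TA30 gave 0.897 at 1 well and -0.002 at 24 wells.

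**Figure D4:**
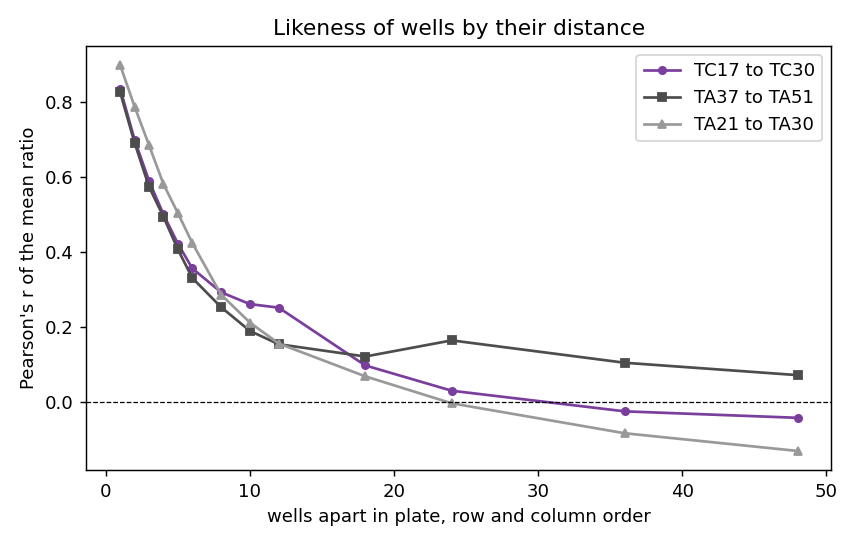
Pearson's r of the mean ratio (vertical axis) is drawn against the number of wells between 2 features (horizontal axis) for TC17 to TC30 and for 2 other dense stretches of the array. In TC17 to TC30 it declines to 0.031 at 24 wells, and up to 6 wells its curve lies within 0.026 of that of TA37 to TA51.

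Set against those stretches, TC17 to TC30 stood higher and varied less over all features, with smaller gaps among high-ratio features alone. Its median exceeded that of TA37 to TA51 by 0.23 units in replicate 1 and 0.17 units in replicate 2, with 3.03 against 2.79 units and 2.49 against 2.33 units. Among high-ratio features alone the medians of the mean were 2.80 and 2.69 units, a gap of 0.11 against 0.21 over all features. After dividing each replicate by the distance between its low and high features the gap was 0.075 of that distance. The SD of the mean ratio over features was 0.649 units in TC17 to TC30, 0.884 in TA37 to TA51 and 1.06 in TA21 to TA30. The rule of size was met by 95.6%, 87.0% and 66.4% of the features. A mean of at least 3 units was reached by 28.2%, 24.6% and 7.12%. Among high-ratio features alone the SDs were 0.504, 0.575 and 0.581 units. A mean of at least 3 units was reached by 29.5%, 28.3% and 10.7% of them. The gaps in median had the same direction in both replicates. However, 2 replicates allow no exact two-sided sign-flip p under 0.5, so none of these gaps passed a test. The plate limits of TC17 to TC30 were also drawn with these ratios known. Its higher level, smaller spread and larger shares may follow in part from that choice and are given as a description.

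Replicate 2 was lower than replicate 1 in 1065 of the 1112 features, by a median of 0.52 units (replicate 2 minus replicate 1, -0.52). The size went with the level. The median difference was 0.03 units among the 39 features with a mean under 1 unit, -0.26 among the 129 between 1 and 2, -0.50 among the 212 between 2 and 2.5, -0.54 among the 418 between 2.5 and 3, and -0.57 among the 314 at 3 units or more. A least-squares line of replicate 2 on replicate 1 had a slope of 0.776, beside 0.767 in TA37 to TA51 and 0.788 in TA21 to TA30. With each replicate divided by the distance between its low and high features, the median difference was -0.026 of that distance. Plate medians of the difference ran from -0.58 units in TC22 to -0.34 in TC30.

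The 4 wells with the highest means were consecutive and differed little between the replicates. The highest value of any member in replicate 1 was 3.82 units, so picking by the highest mean favours a high replicate 2. Their small differences and their place above the line of replicate 2 on replicate 1 follow in part from that choice and are not separate traits. TC27A01 lay at 3.71 units in replicate 1 and 3.59 in replicate 2, TC27A02 at 3.69 and 3.43, TC27A03 at 3.67 and 3.57, and TC27A04 at 3.73 and 3.50. They were the only 4 members above 3.2 units in replicate 2, where the highest other member reached 3.18. Their differences between replicates, -0.27 to -0.09 units, compare with -1.01 to -0.18 units in the 310 other members with a mean of at least 3 units, and these ranges overlap. They lay 0.41 to 0.58 units above the line, whose residual SD was 0.184. Another 14 members lay at least 0.41 units above it, none with a mean over 2.48 units, and 4 of these lay farther above it than any of TC27A01 to TC27A04: TC25A07 by 0.76 units, TC19A06 by 0.68, TC18G07 by 0.65 and TC19G01 by 0.64. Among the other members with a mean of at least 3 units the largest distance above the line was 0.37 units. The next 8 wells of the row, TC27A05 to TC27A12, lay at 2.89 to 3.36 units in replicate 1 and 2.21 to 2.69 in replicate 2, with differences of -0.92 to -0.50 units. The 4 wells are the first of TC27 and have no measured well directly before them, because TC26 had none. The next highest mean was that of TC23C03, with 3.75 and 3.14 units, inside a run of high wells.

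**Figure D5:**
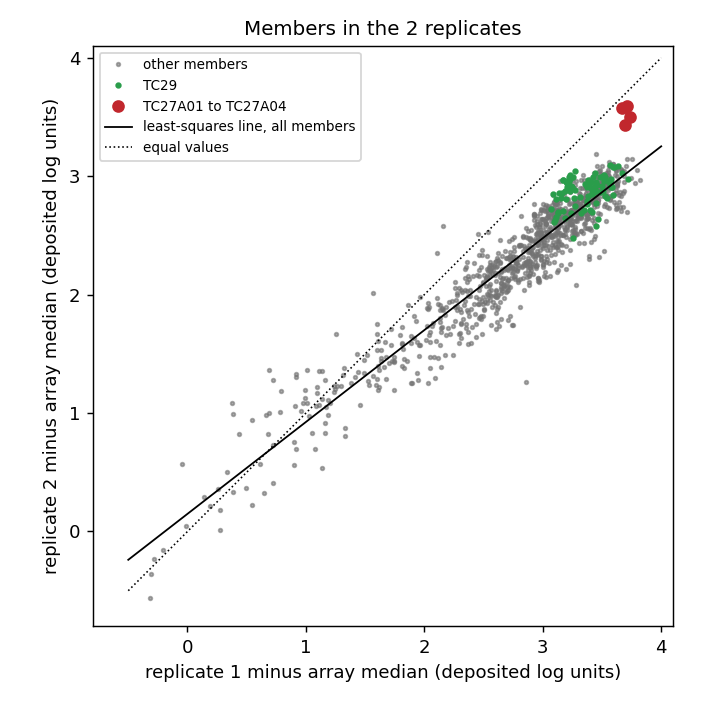
Each point is a feature of TC17 to TC30, with its centred ratio in replicate 1 on the horizontal axis and in replicate 2 on the vertical axis, both in deposited log units. The least-squares line has a slope of 0.776, and TC29 (green) forms a compact group near the top. TC27A01 to TC27A04 (red), picked by their highest means, which favours a place above the line, lie 0.41 to 0.58 units above it. Some members of lower ratio, such as TC25A07 at 0.76 units, lie farther above the line.

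Single wells also differed between the replicates. TC25A01 lay at 2.86 units in replicate 1 and 1.27 in replicate 2, the largest difference of any member. TC21D03, at 3.28 and 2.08 units, and TC18G12, at 3.52 and 2.36, were next in that direction. In the opposite direction TC19G01 lay at 0.37 units in replicate 1 and 1.08 in replicate 2, TC19A06 at 0.69 and 1.36, and TC30B03 at -0.04 and 0.57. No member with a mean of at least 2.5 units (732 features) had the higher value in replicate 2. Of the 49 features that failed the rule of size, 27 did. That rule fixes the direction for some of them. The 12 under 1 unit in replicate 1 alone must be higher in replicate 2, and the 9 under 1 unit in replicate 2 alone must be lower.

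Calls above the array median came in long runs. Runs ended at any uncalled, empty or unlisted well, and 6 runs of at least 50 wells held 1002 of the 1098 called features. The longest, TC22D03 to TC25A01, had 251 wells that averaged 2.46 ± 0.591 units (SD over wells), and TC18H11 to TC21C07 had 225 wells that averaged 2.55 ± 0.609 units. TC27A01 to TC28F10 had 166 wells at 2.74, TC17D01 to TC18H06 150 wells at 2.69 and TC29A01 to TC30B02 110 wells at 3.07 units. The runs up to TC25A01 and TC21C07 ended at empty wells and that up to TC28F10 at the end of its plate, not at a low well. By the rule of size the longest run had 150 wells, and with single uncalled wells allowed it had 379. At a mean of 3 units or more the longest run was TC29E07 to TC29H03, with 33 wells at 3.46 units in replicate 1 and 2.88 in replicate 2. It was followed by TC21A03 to TC21B08, with 18 wells at 3.53 and 2.90 units.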

How the data were processed

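The deposited table held, per the file header, 1 column for each array. Its values are scores on a log scale, ratios between IP and input made by the authors. Log base, direction, background correction and normalization: not given in the sources used here. Per the labels' protocols, the DNA underwent amplification and direct Cy3 or Cy5 labelling. The deposited medians were -1.39 in replicate 1 and -1.15 in replicate 2. Here paired columns were averaged, each replicate was centred on its median over 21727 measured features, and limma tested the mean against 0 over all of them, two-sided, with Benjamini-Hochberg adjustment (R 4.3.3, limma 3.58.1; Python 3.11.15). All features shared an SD of 0.256 units, so the calls act as a limit of 0.42 units. The fit was tested on simulated data with independent noise of equal SD in all features. Such data lack the change of the replicate difference with level and the likeness of neighbouring wells. The accuracy of the calls given here was not tested. The number of arrays limits the precision, and signal over background is unknown.

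The members and lists were chosen with earlier results of these data known. Named wells were the first and last, the 5 highest, the 5 lowest, all not called above, those nearest 1 unit, those with the most extreme replicate differences, every plate, the longest runs and the low stretches with their flanks. Wells named for large steps, even rows, the limits of the stretch and TC27A01 to TC27A12 were chosen after their values were seen. Alternatives covered centring, quantile normalization, scaling, thresholds, treat, single replicates and plate TC30 left out.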

Additional observations from a re-analysis of the deposited data

How the results depend on the processing

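The calls above the array median among the 1112 features of TC17 to TC30 numbered 1005 to 1104 under the other centrings, quantile normalization, an adjusted p under 0.01, treat and a trended robust fit, and 1 with the sign of the arrays turned. Features past the rule of size numbered 788 without centring and 860 at 2 units, and 1072 to 1075 with a replicate left out. The median level of all 1112 features was 1.50 units without centring and 2.49 to 3.03 with a replicate left out. The gap to TA37 to TA51 was 0.28 with means, 0.11 among high-ratio features, 0.075 after scaling (in units of that scale) and 0.95 against TA21 to TA30; single replicates gave 0.17 to 0.23. The correlation between replicates was 0.922 by Spearman and 0.928 past the rule of size. That of neighbouring wells was 0.789 with plate medians subtracted, 0.779 for pairs past the rule of size, 0.251 for the well below, 0.810 without TC30 (chosen after the data were seen) and 0.819 to 0.827 in single replicates. The longest run reached 379 wells where single uncalled wells were bridged and 150 by the rule of size or treat, which call fewer features. The SD within plates, 0.58 units, was 0.40 by the median absolute deviation, 0.46 past the rule of size and 0.52 to 0.65 in single replicates. Replicate 2 minus replicate 1 had a median of -0.27 units without centring, -0.45 with the mode and -0.0204 after quantile normalization. After scaling it was -0.026, in units of that scale. Leaving out a replicate leaves no test, and the causes of these shifts were not tested.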
